A study of Homo sapiens with 6 samples.

Results

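The genes described are FoxO transcription factors (FOXO1, FOXO3 and FOXO4) and genes known to be induced by them (KLF2, BCL6, CCNG2, TXNIP, PIK3IP1, IRS2 and SESN3), taken from the expression table by gene name. All 10 names were found, each on 1 of the 58735 rows. Expression was measured by RNA sequencing in MM.1S, an established human multiple myeloma cell line, in 3 control libraries (si-NC, a non-targeting siRNA) and 3 PRMT1 knockdown libraries (si-PRMT1; PRMT1 KD). Both groups were transient siRNA transfections of 1 cell line at 100 nM, collected 72 h after transfection, and neither group was untransfected. Which PRMT1 siRNA was used for these libraries is not given in the sources used here. The methods speak of biological replicates that were dependent, and neither they nor the labels say whether these libraries came from separate cultures, so p-values measure only the spread between these libraries, which may be technical.

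FoxO factors are forkhead transcription factors that stop division, favour survival under stress or promote death, depending on the cell. Growth factor signaling through PI3K activates the kinase AKT, which phosphorylates FoxO proteins, so that they bind 14-3-3 proteins and leave the nucleus. PRMT1, a type I protein arginine methyltransferase, is known to methylate FOXO1 within an AKT recognition motif and so to hinder its phosphorylation by AKT. These steps act on the protein, and the libraries measure only the amount of mRNA. In B lineage cells, FoxO factors take part in development, and their target KLF2 is a zinc finger factor of lymphocyte quiescence and homing.

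The control libraries held 16064769 to 16465026 reads on genes and the PRMT1 KD libraries 14439217 to 16313196 reads, worked back from FPKM (fragments scaled to gene length and library size). PRMT1 was at 61.7, 62.8 and 58.9 FPKM in the control libraries and at 13.3, 14.0 and 12.5 FPKM in the PRMT1 KD libraries. All 8 plasma cell markers examined were above 1 FPKM, with a summed level of 898 to 920 FPKM in control and 889 to 926 FPKM in PRMT1 KD. None of the 8 was called by limma. At an unadjusted limma p under 0.05, CD38 and MZB1 were higher and PRDM1 and XBP1 lower, 50% beside 19.5% of all genes tested. Markers of monocytes, of erythroid cells and of stromal cells, 4 genes each, summed to at most 0.146 FPKM per list in any library. Of 4 T cell markers, CD2 and CD3D were under 1 FPKM, CD3G was at 3.08 ± 0.0263 FPKM in control and 3.01 ± 0.315 FPKM in PRMT1 KD, and CD3E was at 33.4 ± 1.89 FPKM (SD, n = 3) in control and 38.1 ± 1.4 FPKM (SD, n = 3) in PRMT1 KD. In bulk libraries, fewer cells that express a gene and less RNA per cell cannot be told apart.

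Promoter sequences of the members are shown first, because FoxO factors bind DNA through the forkhead word GTAAACA. It was searched on both strands, where it reads TGTTTAC on the reverse, in windows of 250 bases before to 50 bases after each annotated start (RefSeq, GRCh38.p14). The 10 members had 16 such windows, and 3 held the word, 1 each of TXNIP, PIK3IP1 and FOXO4. Of all 35116 promoter windows, 3.42% held it. The longer word GTAAACAA contains the first. It occurred in 1 member window, that of TXNIP, and in 0.954% of all windows. The 250 bases before the KLF2 start (chr19:16324576-16324825, plus strand) are shown as those of the member that rose. The 250 bases before the upstream start of TXNIP (chr1:145996580-145996829, minus strand) are shown as those with the longer word, with the 7 bases of GTAAACA in capitals.
KLF2: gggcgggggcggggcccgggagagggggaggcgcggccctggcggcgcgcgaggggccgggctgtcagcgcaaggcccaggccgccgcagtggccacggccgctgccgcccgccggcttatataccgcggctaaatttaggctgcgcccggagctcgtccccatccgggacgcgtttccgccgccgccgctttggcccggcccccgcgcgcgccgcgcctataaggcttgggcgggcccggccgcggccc
TXNIP: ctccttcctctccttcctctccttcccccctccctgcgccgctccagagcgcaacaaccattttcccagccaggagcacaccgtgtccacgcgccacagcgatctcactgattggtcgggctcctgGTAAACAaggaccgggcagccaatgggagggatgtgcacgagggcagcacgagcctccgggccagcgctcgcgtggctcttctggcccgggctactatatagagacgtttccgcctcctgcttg
In FOXO4 and PIK3IP1 the word lay after the start, with its first base at position 24 and 17. The 30 bases around it, with the word in capitals, are chrX:71095863-71095892 on the plus strand for FOXO4 and chr22:31292454-31292483 on the minus strand for PIK3IP1.
FOXO4: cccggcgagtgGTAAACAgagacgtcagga
PIK3IP1: taaagagaggcTGTTTACcagaacagcata
The KLF2 window held no match to either word, and 80% of its 250 upstream bases were G or C. A match is a description of letters and not a measured binding site, and no match says nothing about sites outside the window.

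KLF2 rose after PRMT1 knockdown and was the 1 member that passed the test. FOXO3 was higher in each PRMT1 KD library than in any control library, by a smaller amount that did not pass after adjustment. The groups overlapped for FOXO1, FOXO4, CCNG2, TXNIP and PIK3IP1, and IRS2 and SESN3 had no reads. Differences were tested with limma on log2(FPKM + 1) over the 13585 genes with a mean of at least 1 FPKM, and a gene was called changed at a Benjamini-Hochberg adjusted p under 0.05. Of the 8 members that passed this filter, 1 was called higher and 0 lower. Among all genes tested, 2.05% were called, 1.07% higher and 0.986% lower. The median log2 fold change of the 8 members was 0.11, beside 0.0095 for all genes tested. At an unadjusted limma p under 0.05, 2 of the 8 members were counted, KLF2 and FOXO3, both higher, beside 19.5% of all genes tested (10.1% higher and 9.47% lower). The log2 fold change was above 0 for 6 of the 8, beside 52.6% of all genes tested. The groups did not overlap for 3 of the 8, KLF2, FOXO3 and BCL6, all upward, beside 25.9% of all genes tested (13.6% upward and 12.3% downward).

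**Figure D1:**
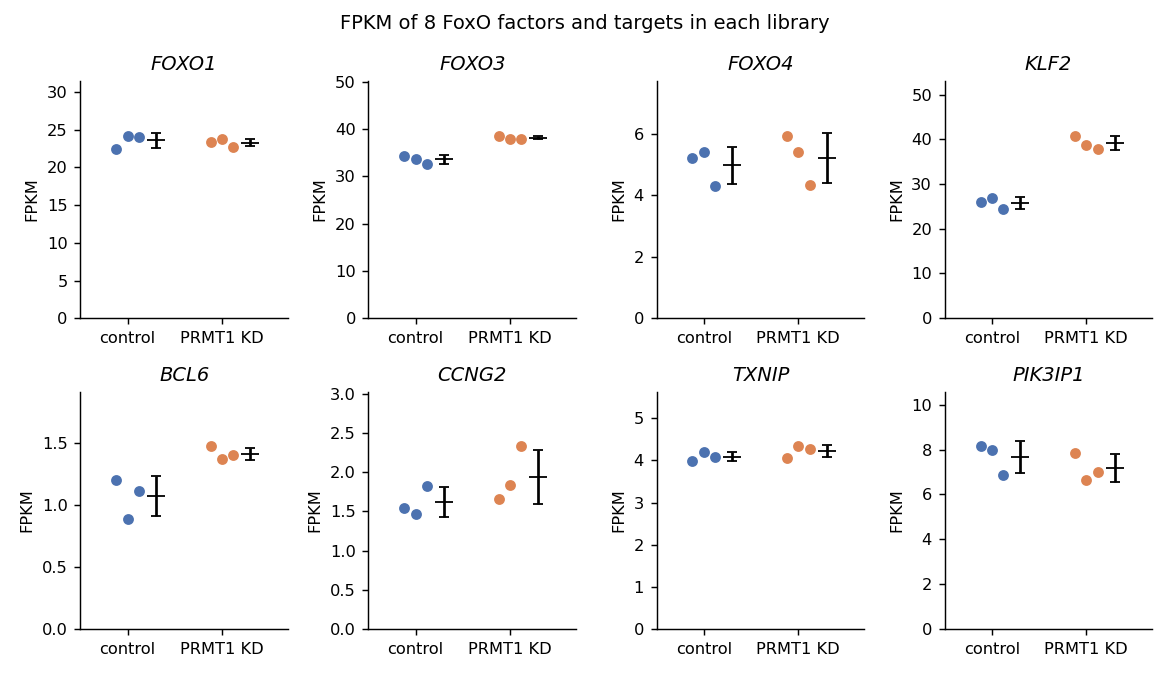
Expression of the 8 members above the filter, in FPKM on a linear axis from 0, in 3 control libraries (blue) and 3 PRMT1 KD libraries (orange); each point is 1 library, and the bar beside them is the mean with SD. The groups do not overlap for KLF2, FOXO3 and BCL6, while IRS2 and SESN3, at 0 reads in each library, are not drawn.

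Among the FoxO factors, FOXO3 had the highest mRNA level per length. FOXO3 (ENSG00000118689, chr6:108559835-108684774, plus strand, hg38) was at 34.4, 33.7 and 32.6 FPKM in the control libraries. In the PRMT1 KD libraries FOXO3 was at 38.6, 38.0 and 37.9 FPKM. The lowest PRMT1 KD library thus lay above the highest control library. The mean was 33.6 ± 0.898 FPKM in control and 38.2 ± 0.368 FPKM in PRMT1 KD (SD, n = 3 each), 114% of control. The log2 fold change of FOXO3 was 0.18 (standard error, SE, 0.0412, 95% interval 0.0842 to 0.279). Its unadjusted limma p was 0.00313 and its adjusted p 0.0796, so the difference did not pass over all genes tested. On the reads worked back, limma's voom gave FOXO3 a log2 fold change of 0.19 with an adjusted p of 0.0455, which passed. Voom called 927 genes in all, against 279 in the fit on FPKM, genes of the other lists among them. FOXO3 had 4160 to 4924 reads per library. Its near-identical copy FOXO3B had 16 to 35 reads, at 0.82 ± 0.249 FPKM in control and 0.657 ± 0.151 FPKM in PRMT1 KD (SD, n = 3 each). How reads that match both copies were counted is not given in the sources used here, so the FOXO3 values are uncertain to that extent. FOXO3 also overlaps the pseudogene SUMO2P8 on the opposite strand, which had at most 1 read per library.

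FOXO1, the member that PRMT1 is known to methylate, differed by less than the spread between control libraries. It is listed under ENSG00000150907 on chr13:40469953-40666597, minus strand. FOXO1 was at 22.5, 24.2 and 24.1 FPKM in control and at 23.4, 23.8 and 22.7 FPKM in PRMT1 KD. All 3 PRMT1 KD values lay between the lowest and the highest control value. Its log2 fold change was -0.018 (SE 0.0487, adjusted p = 0.88 by limma), with a 95% interval from -0.133 to 0.0974. This interval lies below the whole interval of KLF2. With 2133 to 2486 reads per library, counting error alone was about 2.08% of the FOXO1 level, and the coefficient of variation between libraries was 4.17% in control and 2.23% in PRMT1 KD. LINC00598, which overlaps FOXO1 on the same strand, had 114 to 152 reads.

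FOXO4 (ENSG00000184481, chrX:71096197-71103535, plus strand) was the least abundant of the 3 factors. Its values were 5.22, 5.41 and 4.30 FPKM in control and 5.94, 5.40 and 4.34 FPKM in PRMT1 KD. The groups overlapped, and replicate 3 was the lowest library of each. The log2 fold change of FOXO4 was 0.055 with a 95% interval from -0.225 to 0.335 (adjusted p = 0.84 by limma), and it turned negative when control replicate 3 (-0.029) or PRMT1 KD replicate 1 (-0.027) was left out. FOXO6, the remaining FoxO factor, had 1 read in 1 PRMT1 KD library and 0 reads in the other 5 libraries.

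The summed level of FOXO1, FOXO3 and FOXO4 was 62.1, 63.3 and 61.0 FPKM in the control libraries and 67.9, 67.2 and 65.0 FPKM in the PRMT1 KD libraries. FOXO3 made up 53.2% to 55.4% of this sum in control and 56.6% to 58.4% in PRMT1 KD. The ratio of FOXO3 to FOXO1, both in FPKM, was 1.53, 1.39 and 1.35 in control and 1.65, 1.60 and 1.67 in PRMT1 KD. These ratios did not overlap between the groups and are given as a description without a test.

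**Figure D2:**
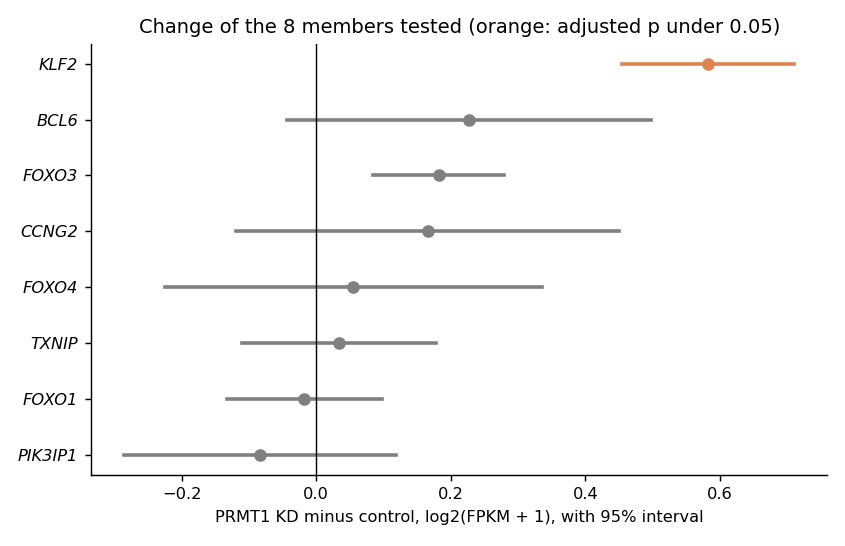
Fitted difference between PRMT1 KD and control for the 8 members tested, on the log2(FPKM + 1) scale, with unadjusted 95% intervals from limma; orange marks an adjusted p under 0.05. The interval of KLF2 runs from 0.454 to 0.71, that of FOXO3 from 0.0842 to 0.279, and the other intervals include 0.

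KLF2 (ENSG00000127528, chr19:16324817-16327874, plus strand) was at 26.0, 26.9 and 24.4 FPKM in the control libraries. In the PRMT1 KD libraries it was at 40.8, 38.7 and 37.8 FPKM, so the groups were separated by a gap larger than the range within either. The means were 25.8 ± 1.28 FPKM and 39.1 ± 1.55 FPKM (SD, n = 3 each), 1.52-fold of control. The log2 fold change was 0.58 (SE 0.0542, 95% interval 0.454 to 0.71, adjusted p = 0.0121 by limma). An exact two-sided permutation test of the FPKM values gave p = 0.1, the smallest that 3 libraries against 3 allow. By limma p KLF2 ranked 14th of the 13585 genes tested, and by log2 fold change 163rd from the highest. It had 814 to 877 reads in control and 1123 to 1359 in PRMT1 KD, and its coefficient of variation between libraries was 4.97% and 3.97%, against 3.11% from counting alone. The log2 fold change was 0.545 to 0.613 when any 1 library was left out. The call was lost without control replicate 1 (adjusted p = 0.0856) and without PRMT1 KD replicate 2 (adjusted p = 0.0667).

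KLF2 overlaps no other gene of the table, but has processed pseudogenes on chromosome 2 that could share its reads. KLF2P1 had 106, 112 and 131 reads in control and 110, 90 and 71 in PRMT1 KD, with a log2 fold change of -0.24 (adjusted p = 0.344 by limma). KLF2P4 had 45, 58 and 42 reads in control and 51, 39 and 42 in PRMT1 KD, with a log2 fold change of -0.028 (adjusted p = 0.926 by limma). Neither was called, and KLF2P2 and KLF2P3 had 0 reads. How reads that match KLF2 and a pseudogene were counted is not given in the sources used here, and sharing of reads was not tested.

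The order of levels per length changed at the top. In control the order was FOXO3, KLF2, FOXO1, PIK3IP1, FOXO4, TXNIP, CCNG2 and BCL6, with no overlap between neighbours across the 3 libraries. In PRMT1 KD, KLF2 and FOXO3 overlapped, and the order of the others was as in control, again with no overlap between neighbours.

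Among the cell cycle and repressor targets, the levels were low. BCL6, a transcriptional repressor of germinal center B cells that plasma cells normally silence, is listed under ENSG00000113916 on chr3:187721377-187745727, minus strand. It was at 1.20, 0.888 and 1.11 FPKM in control and at 1.47, 1.37 and 1.40 FPKM in PRMT1 KD. All PRMT1 KD libraries lay above all control libraries. The log2 fold change of BCL6 was 0.23 with a 95% interval from -0.0428 to 0.497 (adjusted p = 0.329 by limma). A pseudocount of 1 understates the change of a gene near 1 FPKM, and the log2 fold change by voom on reads was 0.42, also short of the threshold (adjusted p = 0.117). BCL6 had 85 to 144 reads per library, and counting alone gave an error of 9.26%. CCNG2, an unconventional cyclin linked to cell cycle arrest (ENSG00000138764, chr4:77157151-77433388, plus strand), was at 1.55, 1.47 and 1.83 FPKM in control. In PRMT1 KD it was at 1.66, 1.84 and 2.33 FPKM, which overlapped the control values. Its log2 fold change was 0.17 (95% interval -0.119 to 0.45, adjusted p = 0.495 by limma), and 0.25 by voom on reads (adjusted p = 0.3).

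The metabolic and signaling targets gave no called change. TXNIP, an inhibitor of glucose uptake and of thioredoxin (ENSG00000265972, chr1:145992435-145996600, minus strand), was at 3.98, 4.21 and 4.09 FPKM in control. In PRMT1 KD it was at 4.06, 4.33 and 4.26 FPKM. The groups overlapped, and the log2 fold change was 0.034 with a 95% interval from -0.11 to 0.178 (adjusted p = 0.802 by limma). PIK3IP1, a membrane protein that restrains PI3K (ENSG00000100100, chr22:31281593-31292534, minus strand), was at 8.14, 7.99 and 6.85 FPKM in control and at 7.86, 6.66 and 6.99 FPKM in PRMT1 KD. Its log2 fold change was -0.083 with a 95% interval from -0.285 to 0.118 (adjusted p = 0.632 by limma). PIK3IP1 overlaps the antisense gene PIK3IP1-AS1, which had 2 to 17 reads, and the strand setting of the counting is not given in the sources used here.

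IRS2, an adaptor of the insulin receptor (ENSG00000185950, chr13:109752698-109786568, minus strand), and SESN3, a stress-induced regulator of mTORC1 (ENSG00000149212, chr11:95165513-95232541, minus strand), had 0 reads in all 6 libraries. A count of 0 allows up to 3 reads per library, or 0.0223 to 0.0256 FPKM for IRS2 and 0.0171 to 0.0197 FPKM for SESN3, a limit that covers counting error only. Neither entered the test, and expression of either was not detectable at this depth. Their relatives were expressed. IRS1 was at 12.4 ± 0.772 FPKM in control and 12.8 ± 1.13 FPKM in PRMT1 KD, and SESN2 at 57.7 ± 3.04 FPKM and 55.0 ± 2.84 FPKM (SD, n = 3 each).

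Paralogs of the members were counted as a list of 10 genes, of which 5 passed the filter. KLF6, a zinc finger factor of the KLF2 family (ENSG00000067082), was the 1 called, and it was higher, beside 1.07% of all genes tested that were called higher. It was at 11.1, 11.2 and 11.2 FPKM in control and at 13.7, 13.3 and 13.4 FPKM in PRMT1 KD, a log2 fold change of 0.25 (SE 0.0442, adjusted p = 0.047 by limma). The KLF6 call was near the threshold and was lost when any 1 library was left out, with adjusted p from 0.0823 to 0.187. SESN1, a p53 and FoxO target, had the lowest log2 fold change of the list, at -0.10 (adjusted p = 0.54 by limma). KLF4 and ARRDC4, relatives of KLF2 and TXNIP, had 0 reads.

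The PI3K-AKT list held 22 genes that act upstream of FoxO, of which 17 were tested and 0 called, with a median log2 fold change of 0.12. At an unadjusted limma p under 0.05, 4 were higher and 1 lower, 29.4% of those tested beside 19.5% of all genes. Named after their values were seen, the 4 were IGF1R, a growth factor receptor, and the PI3K catalytic subunit genes PIK3CA, PIK3CB and PIK3CD. IGF1R was at 5.54, 5.66 and 5.27 FPKM in control and at 6.92, 7.21 and 6.67 FPKM in PRMT1 KD. Its log2 fold change was 0.29 (adjusted p = 0.0594 by limma and 0.00579 by voom on reads, which passed). PIK3CA was at 3.07, 3.02 and 4.08 FPKM in control and at 4.52, 3.88 and 4.74 FPKM in PRMT1 KD, which overlapped. It had the highest log2 fold change of the list, 0.30 (adjusted p = 0.218 by limma and 0.0461 by voom on reads, which passed). INPP5D, which encodes the lipid phosphatase SHIP1 that opposes PI3K, had the lowest, -0.20, at 18.8 ± 1.33 FPKM in control and 16.2 ± 0.575 FPKM in PRMT1 KD (SD, n = 3 each; adjusted p = 0.154 by limma).

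Of 22 FoxO binding partners and modifiers, all of them tested, 1 was called higher and 0 lower, or 4.55% called beside 2.05% of all genes tested. SETD7, a lysine methyltransferase known to methylate FOXO3 (ENSG00000145391), was at 5.83, 6.34 and 5.99 FPKM in control and at 9.64, 9.02 and 9.03 FPKM in PRMT1 KD. The groups did not overlap, and the log2 fold change was 0.54 (SE 0.0572, 95% interval 0.402 to 0.672, adjusted p = 0.0154 by limma). The SETD7 call was lost in 5 of the 6 fits with 1 library left out, with log2 fold changes of 0.508 to 0.566 and adjusted p from 0.0519 to 0.102. It held without control replicate 3 (adjusted p = 0.0473). An antisense gene that overlaps SETD7, AC112236.2, had 1 to 24 reads, against 1343 to 2215 for SETD7. At an unadjusted limma p under 0.05, 8 of the 22 were higher and 3 lower, 50% beside 19.5% of all genes tested. Here and for the other lists, the share of all genes tested was not matched for expression level. At a mean of at least 5 FPKM, limma called 473 of 7710 genes, against 279 of 13585 over all genes tested. SMAD3, a TGF-beta effector that partners FoxO factors, had the lowest log2 fold change of the 22, -0.19 (adjusted p = 0.17 by limma). It was at 8.30, 9.03 and 8.59 FPKM in control and at 7.68, 7.80 and 6.92 FPKM in PRMT1 KD.

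Of 40 further FoxO-induced genes, 22 were tested and 0 called, with a median log2 fold change of 0.046 and a range from -0.234 to 0.257. At an unadjusted limma p under 0.05, 5 were higher and 1 lower, 27.3% beside 19.5% of all genes tested. FBXO32, a muscle atrophy ubiquitin ligase, had the highest log2 fold change, 0.26, with 5.85, 5.64 and 5.56 FPKM in control and 6.76, 6.94 and 7.26 FPKM in PRMT1 KD (adjusted p = 0.0694 by limma). The log2 fold change was above 0 for 14 of the 22 and below 0 for 8. The groups did not overlap for 7 upward and 2 downward, 40.9% beside 25.9% of all genes tested. Below 0 were, among others, CDKN1B (-0.0515), GADD45A (-0.233), CAT (-0.093) and MAP1LC3B (-0.176), also named after their values were seen. The other 4 that were higher at an unadjusted p under 0.05, named after their values were seen, were RBL2, BCL2L11, CDKN1A and ULK1. RBL2, a pocket protein of quiescent cells, was at 19.2 ± 0.191 FPKM in control and 22.9 ± 0.748 FPKM in PRMT1 KD (SD, n = 3 each; adjusted p = 0.0514 by limma). BCL2L11, which encodes the death-promoting protein BIM, was at 7.73 ± 0.0463 FPKM and 9.29 ± 0.493 FPKM (SD, n = 3 each; adjusted p = 0.0847 by limma). CDKN1A, which encodes the cell cycle inhibitor p21, was at 21.4 ± 1.23 FPKM and 25.8 ± 1.86 FPKM (SD, n = 3 each; adjusted p = 0.113 by limma). By voom on reads, the adjusted p was 0.0222 for FBXO32, 0.0171 for RBL2, 0.0329 for BCL2L11 and 0.0418 for CDKN1A, which passed. No gene of the list with a log2 fold change below 0 passed by voom. EIF4EBP1, a repressor of translation, had the lowest log2 fold change, -0.23, and its groups overlapped (adjusted p = 0.238 by limma).

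Cyclin D genes are repressed by FoxO factors. CCND1 was at 113, 116 and 107 FPKM in control and at 102, 102 and 98.6 FPKM in PRMT1 KD, a log2 fold change of -0.15 (adjusted p = 0.139 by limma). CCND2 was at 13.3 ± 0.288 FPKM in control and 13.3 ± 0.344 FPKM in PRMT1 KD (SD, n = 3 each), a log2 fold change of 0.00129 whose sign depended on the scaling and on single libraries (95% interval -0.11 to 0.113, adjusted p = 0.992 by limma).

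**Figure D3:**
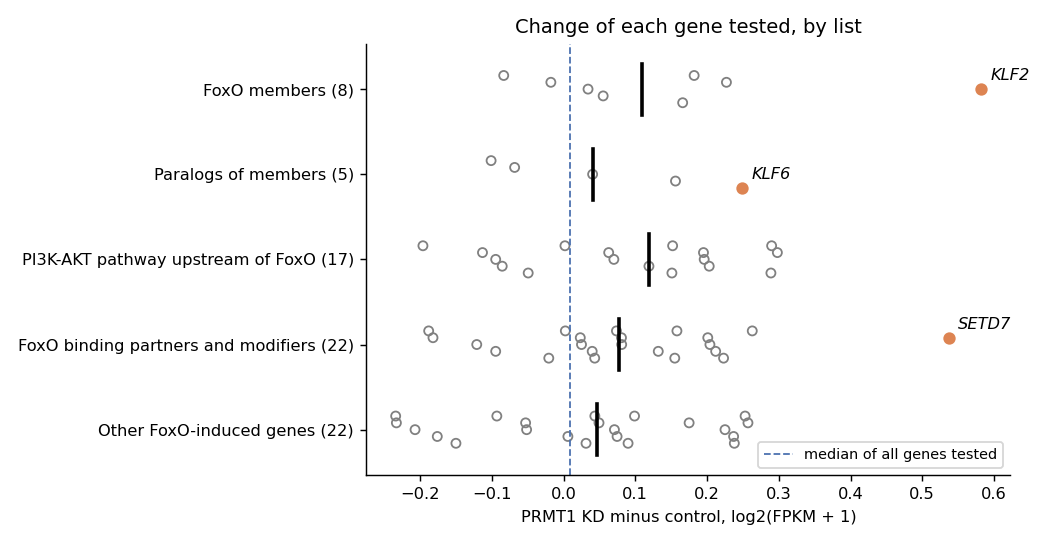
Difference between PRMT1 KD and control on the log2(FPKM + 1) scale for each gene tested, by list, with the number tested in parentheses; the black bar is the list's median, the dashed line the median of all genes tested, and filled points have an adjusted p under 0.05. KLF2, KLF6 and SETD7 are the filled points.

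**Figure D4:**
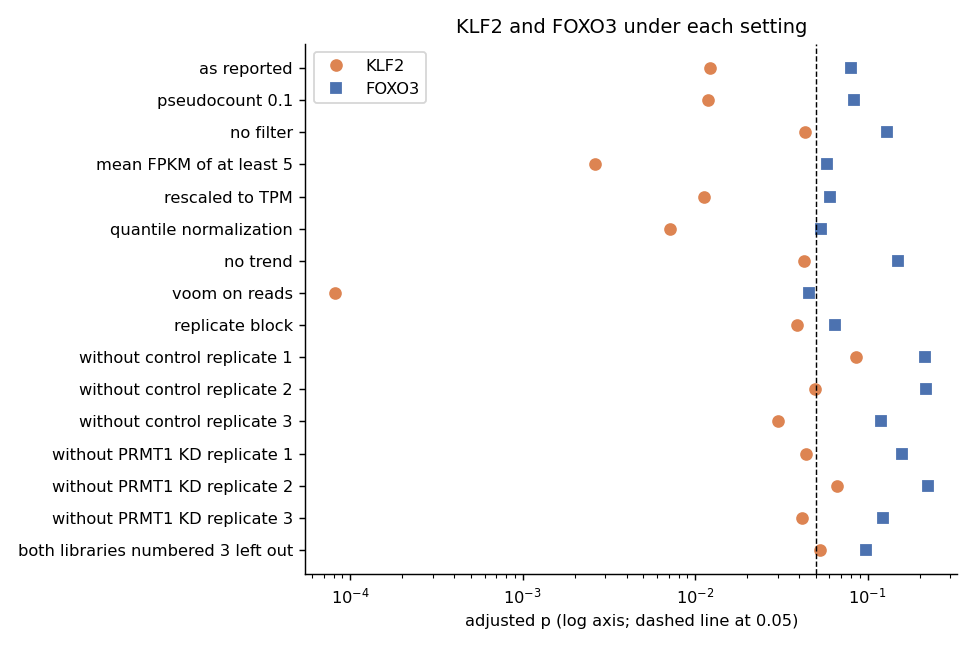
Adjusted p of KLF2 (circles) and FOXO3 (squares) on a log axis, for the values as reported and under each alternative; the dashed line is 0.05. KLF2 lies right of the line without control replicate 1, without PRMT1 KD replicate 2 and with both libraries numbered 3 left out, and FOXO3 lies left of it with voom on reads alone.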

How the data were processed

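Total RNA was isolated from MM.1S cells, and 6 libraries were sequenced. The paper's methods do not say, for these libraries, whether poly(A) RNA was selected. The authors deposited FPKM values per gene, with gene length and hg38 coordinates, and the submitters' processing notes name featureCounts 1.5.0-p3; the aligner, strand setting and annotation release are not given in the sources used here. FPKM multiplied by gene length gave whole multiples of 1 step per library for 100% of values above 0 (tolerance 0.001 reads), so reads were worked back. The library size in the FPKM equalled the median-of-ratios size factor times the geometric mean of the totals, so values were already scaled between libraries.

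Values were tested with limma (version 3.58.1; R version 4.3.3; moderated, two-sided, variance trend on, Benjamini-Hochberg adjustment) on log2(FPKM + 1) over genes with a mean of at least 1 FPKM. The fit was checked on simulated data with changes larger than those of the members, in genes at a mean of at least 5 FPKM. The check does not cover changes of the members' size or genes at lower levels. Members and lists were chosen, and tests set, with earlier results of these data known. Named were all members, PRMT1, FOXO6, FOXO3B, the genes called in each list and each list's highest and lowest log2 fold change. Where a symbol had more than 1 row (SOD2), the row with the HGNC description was used. Alternatives were pseudocount, filter, TPM, quantile normalization, no trend, voom on reads, the replicate block, leaving out libraries and an unadjusted p. Leaving out both libraries numbered 3 was chosen after seeing the data. In both groups, replicate 3 differed most from the others by the chi-square per degree of freedom between the reads of a pair. In control it was 5.227 and 6.118 for the pairs with replicate 3, against 2.453 for replicates 1 and 2. In PRMT1 KD it was 7.558 and 5.272, against 2.808.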

Additional observations from a re-analysis of the deposited data

How the results depend on the processing

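PRMT1, and the log2 fold changes of KLF2 (0.545 to 0.615), FOXO3 (0.161 to 0.205), KLF6 (0.23 to 0.283) and SETD7 (0.508 to 0.61), kept their direction in all 16 alternatives, and PRMT1 its call. The other filters, no trend, the replicate block and the unadjusted p leave a gene's log2 fold change as it was. Under these settings the direction could not differ. Calls moved with the settings below; the cause was not tested, beyond the fewer libraries or genes that some of them use. Leaving out 1 library in turn gave 13 to 95 called genes instead of 279, 0 to 1 of the members, 0 of the paralogs and 0 to 1 of the binding partners and modifiers. Leaving out both libraries numbered 3 gave 21 called genes and 0 members, 0 paralogs and 0 partners, with FOXO1 at 0.0146, CCND2 at -0.00847 and KLF2 at an adjusted p of 0.0528.

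No filter gave 35 called genes of 34078 tested, and 0 paralogs. No trend gave 43 of 13585, and 0 paralogs. A mean of at least 5 FPKM gave 473 of 7710, with 1 PI3K-AKT gene and 1 further FoxO-induced gene. Its member median was 0.0552, over the 5 members left. Voom on reads gave 927 of 13585, with 2 members (KLF2 and FOXO3) and 2 PI3K-AKT genes (IGF1R and PIK3CA). Voom also called 3 partners (SETD7, KAT2B and XPO1) and 4 further FoxO-induced genes (RBL2, FBXO32, BCL2L11 and CDKN1A). An unadjusted p under 0.05 gave 2655 of 13585 (19.5%), with 2 members, 5 PI3K-AKT genes, 11 partners and 6 further FoxO-induced genes. The main fit gave 279 of 13585 (2.05%). The list counts under each setting stand beside these totals and are not a result about the lists. Rescaling to TPM gave 1 PI3K-AKT gene, 2 further FoxO-induced genes, a member median of 0.143 and FOXO1 at 0.00145, and 222 genes were called higher and 133 lower, against 145 and 134 as deposited. Quantile normalization gave 0 paralogs, CCND2 at -0.0184, and 146 genes called higher and 179 lower. With 1 library left out, FOXO1 ranged from -0.0514 to 0.000146, FOXO4 from -0.0291 to 0.161 and CCND2 from -0.0148 to 0.021 (-0.0122 and -0.00499 among them).

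The fit with a replicate block called 204 genes, with 1 member (KLF2, adjusted p = 0.0387) and 0 paralogs. Same-numbered libraries deviated from their group means with correlations of 0.02, 0.0631 and 0.101, and each library correlated best with its own number. For number 1 the margin was small. Control 1 correlated at 0.0186 with PRMT1 KD 2, and control 2 at 0.0173 with PRMT1 KD 1. Deviations within a group sum to 0, so the correlations are not independent of each other. Same-numbered samples share only a number in the labels. Of the members tested, BCL6 had the fewest reads, 85 to 144 per library, with a counting error of 9.26% of its level.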
